A study of Drosophila melanogaster with 10 samples.

Results

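The GABA and glutamate receptor genes described here are the 10 that were listed by name, and 9 of them are rows of the authors' deposited table of 9655 genes. The 9 are Rdl, Lcch3, Grd, GABA-B-R1, GABA-B-R2, GABA-B-R3, GluClalpha, mGluR and Nmdar1. Nmdar2 is absent from that table, although it is among the 23882 features of the count tables. The samples were bulk RNA-seq libraries of Kenyon cells (KCs), the intrinsic neurons of the mushroom body, sorted by FACS from the central brains of newly eclosed females (Day 0). The 5 dSERT16 samples came from flies homozygous for an imprecise P-element excision in SerT, the serotonin transporter gene, and the 5 dSERT4 samples from a control line of matched genetic background that carries a smaller deletion at the same place and is labelled as wild type for SERT. All flies carried Mef2(P247)-gal4 driving nuclear GFP, which labels most KCs but favours the α/β and γ classes over α′/β′, and many brains were pooled for each sample. The replicate numbers 1 to 5 follow the 5 prefixes shared by the sample titles, with 1 sample of each genotype under each prefix. Genotypes were compared in replicates 2 to 5, since the study set the replicate 1 pair aside. The p-values weigh a difference between groups against the spread between these pooled samples.

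GABA is the main inhibitory transmitter of the fly brain, and KCs receive it from the anterior paired lateral neuron, which keeps odour responses sparse. Fast inhibition runs through pentameric chloride channels of the Rdl type, and slow inhibition through GABA-B receptors, which signal by G proteins as dimers of an R1 and an R2 subunit. Glutamate in flies can excite through AMPA-, kainate- and NMDA-type channels, inhibit through the glutamate-gated chloride channel GluClalpha, or act through the G protein-coupled mGluR.

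The reads on genes numbered 18446396 to 69997102 per sample, and the 9 genes of the deposited table took 0.314% to 0.378% of them. KC markers such as ey, Mef2 and prt were abundant, with 12 of 12 tested and a summed level of 19230 to 24132 CPM (read counts per sample scaled to a common depth, with TMM) over the 10 samples. Glial markers were also present. Their summed level was 989 to 1686 CPM in dSERT4 and 1109 to 1705 CPM in dSERT16 in replicates 2 to 5, and 525 and 318 CPM in replicate 1. Markers of neurons that use other transmitters, such as VGAT, VGlut and ple, summed to 209 to 316 CPM over all 10 samples. These markers differed in level. In replicates 2 to 5, VGAT was at 127 to 185 CPM, Gad1 at 6.44 to 20.1, VGlut at 1.52 to 5.20 and ple at 0.87 to 77.4 CPM. SerT itself held 5 to 183 reads per sample. It was at 2.62, 1.06, 2.15, 3.40 and 0.92 CPM in replicates 1 to 5 of dSERT4 and at 0.79, 0.61, 0.76, 0.33 and 0.23 CPM in dSERT16. In replicates 2 to 5 the genotypes did not overlap for SerT, as for 4.89% of all genes tested. The log2 fold change over replicates 2 to 5 was -1.92 with a 95% interval of -3.43 to -0.42 and an unadjusted p of 0.0157, and the edgeR p adjusted over all genes was 0.519. In bulk samples, fewer cells of a type and less RNA per cell cannot be told apart.

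How the reads were assigned decides what can be said of 2 of the receptor genes. In the count column without strand, a read over 2 overlapping genes went to neither. All 1256 genes that lie within the span of a gene on the other strand, share no exon base with it and hold reads in the strand-specific columns had 0 reads in that column. The overlap was therefore taken over whole gene spans, introns included. The libraries do not mark strand, so the strand-specific columns together count every read over a gene's span, whichever of the overlapping genes it came from.

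Nmdar2 (FBgn0053513) lies on the reverse strand of X at 1483625-1507809 (BDGP6), wholly inside inc (FBgn0025394), which runs on the forward strand from 1483479 to 1517615. inc, or insomniac, encodes an adaptor of a Cul3 ubiquitin ligase known for its part in sleep. None of the 4686 exon bases of inc fall in the Nmdar2 span, and all 8036 exon bases of Nmdar2 fall in the inc span. Nmdar2 accordingly had 0 reads without strand in all 10 samples. The strand-specific columns held 62558 reads over the Nmdar2 span, and inc lost 63120 reads between these columns and the column without strand. In each sample the reads over the Nmdar2 span came to 98.6% to 99.4% of those that inc lost. These are thus largely the same reads, and exonic reads of Nmdar2 cannot be told apart from intronic reads of inc. The values given below for the Nmdar2 span are of both genes together and are no level of Nmdar2 alone.

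Lcch3 (FBgn0010240, X, 15925105-15928529, forward strand) kept 28.8% of the reads counted over its span, 26175 of 90945. Its 3′ part lies in the span of Ranbp16, an importin gene on the other strand, and it also meets the antisense RNA asRNA:CR45000, so that 721 of its 1903 exon bases lie outside other genes. Ranbp16 had 100752 reads in the strand-specific columns and 53721 without strand, and asRNA:CR45000 had 8788 and 0. How many of the reads over the Lcch3 span come from Lcch3 was not tested. Nmdar1 (FBgn0010399, 3R, 5508842-5523328, reverse strand), which overlaps the IP3 receptor gene Itpr, kept 90.4%. Grd (FBgn0001134, 3L, 17823333-17839767, forward strand), whose end overlaps CG5577, kept 91.0%. GABA-B-R3 kept 95.2%, and Rdl, GABA-B-R1, GABA-B-R2, GluClalpha and mGluR kept 99.5% or more.

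**Figure D1:**
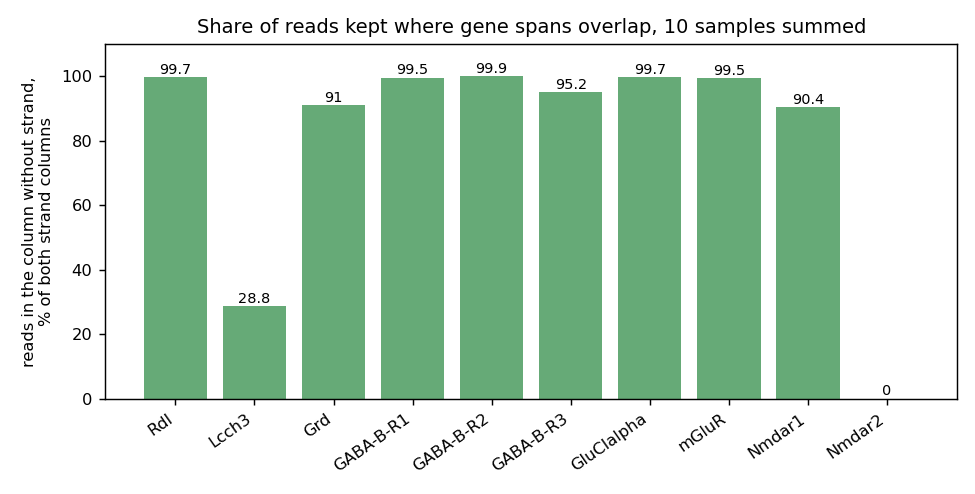
Bars give, for each receptor gene, the reads in the column without strand as a percentage of the reads in both strand-specific columns, summed over the 10 samples. Lcch3 kept 28.8% and Nmdar2 0%, and the other genes kept 90.4% or more. The strand-specific columns include reads of overlapping genes.

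Among the GABA-gated channel subunits, Rdl took the most reads. CPM is not divided by gene length, and most reads over the Lcch3 span were left uncounted because of overlaps. The order per length is therefore given further on. Rdl (FBgn0004244, 3L, 9145838-9182149, reverse strand) encodes the subunit that forms GABA-gated chloride channels by itself and is the target of the insecticide dieldrin. In dSERT4, Rdl was at 1722, 1924, 1641, 1440 and 1699 CPM in replicates 1 to 5. In dSERT16, it was at 1665, 1954, 1832, 1438 and 1675 CPM. The samples of replicate 4 were the lowest and those of replicate 2 the highest in both genotypes, and the genotypes overlapped. Rdl took 45.0% to 52.0% of the reads on the 9 genes in each sample and was more abundant in CPM than 99.3% of the 8690 genes tested.

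Lcch3 and Grd encode subunits that form a GABA-gated cation channel when expressed together in frog oocytes. Lcch3 was at 71.9, 86.9, 69.0, 61.1 and 62.2 CPM in replicates 1 to 5 of dSERT4 and at 61.8, 73.0, 71.7, 65.4 and 70.6 CPM in dSERT16. Grd was near the lower end of detection, with 11 to 178 reads per sample. Its level was 2.55, 3.04, 1.74, 2.46 and 0.53 CPM in dSERT4 and 0.84, 1.68, 2.72, 2.28 and 0.97 CPM in dSERT16. The genotypes overlapped for both genes, and replicate 5 held the lowest dSERT4 value of Grd.

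The GABA-B genes split in the same way into a well-counted pair and a scarce gene. GABA-B-R1 (FBgn0260446, 2L, 15016331-15034704, forward strand) encodes the subunit that binds GABA in the heterodimer, and GABA-B-R2 (FBgn0027575, 3R, 21770333-21775840, reverse strand) the partner that carries it to the membrane and couples to G proteins, roles worked out mainly in mammals. GABA-B-R1 was at 164, 182, 217, 205 and 232 CPM in replicates 1 to 5 of dSERT4 and at 184, 194, 222, 203.5 and 225 CPM in dSERT16. GABA-B-R2 was at 573, 534, 618, 620 and 702 CPM in dSERT4 and at 557, 570, 631, 604 and 654 CPM in dSERT16. Both genes were highest in replicate 5 and lowest in replicates 1 and 2 in both genotypes, and the genotypes overlapped.

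The log2 ratio of GABA-B-R1 to GABA-B-R2 in CPM varied little among the 8 samples of replicates 2 to 5. It was -1.56 ± 0.04 in dSERT4 and -1.54 ± 0.03 in dSERT16 (SD, n = 4 each), with overlapping ranges. In replicate 1 it was -1.80 in dSERT4 and -1.60 in dSERT16, both below the range of -1.60 to -1.51 of the other samples. The dSERT16 value missed that range by less than the last digit printed.

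GABA-B-R3 (FBgn0031275, 2L, 749945-762399, forward strand) encodes a further GABA-B receptor found in insects whose partner is not known. It held 60 to 609 reads per sample. In dSERT4 it was at 5.28, 4.77, 2.08, 8.62 and 2.91 CPM in replicates 1 to 5, and in dSERT16 at 9.44, 7.57, 7.26, 10.8 and 9.67 CPM. The dSERT16 sample was the higher one in 5 of 5 pairs, and the share of all genes with such a run was not counted. The dSERT4 sample of replicate 4 lay above the dSERT16 samples of replicates 2 and 3, so that the genotypes overlapped.

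The listed glutamate receptors that were counted without strand covered a narrower range of levels than the listed GABA receptors. GluClalpha (FBgn0024963, 3R, 19730715-19775231, forward strand) encodes the glutamate-gated chloride channel that ivermectin opens. It was at 663, 628, 617, 490 and 627 CPM in replicates 1 to 5 of dSERT4 and at 458, 618, 601, 480 and 494 CPM in dSERT16. The dSERT16 sample was the lower one in 5 of 5 pairs, by 204.5 CPM in replicate 1 and by 9.95 to 133 CPM in replicates 2 to 5. The share of all genes with such a run was not counted, and the genotypes overlapped.

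mGluR (FBgn0019985, chromosome 4, 936819-949441, forward strand) encodes the fly receptor related to the mammalian metabotropic glutamate receptors that couple to inhibitory G proteins. It was at 416, 317, 277, 299 and 291 CPM in replicates 1 to 5 of dSERT4 and at 317, 259, 313, 264 and 273 CPM in dSERT16. The dSERT4 sample of replicate 1 was the highest by a wide margin.

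Nmdar1 encodes the obligatory NMDA receptor subunit, which forms a glutamate-gated cation channel with Nmdar2. Nmdar1 was at 89.9, 86.3, 66.1, 75.5 and 92.7 CPM in replicates 1 to 5 of dSERT4 and at 80.6, 76.5, 84.2, 71.3 and 80.3 CPM in dSERT16. Reads over the Nmdar2 span, from both strand-specific columns, came to 152, 138, 177, 168 and 190 CPM in dSERT4 and to 134, 143, 166, 155 and 181 CPM in dSERT16. The genotypes overlapped for both. On the same columns, the log2 ratio of Nmdar1 to the Nmdar2 span was -1.01 ± 0.28 in dSERT4 and -0.99 ± 0.12 in dSERT16 (SD, n = 4 each).

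**Figure D2:**
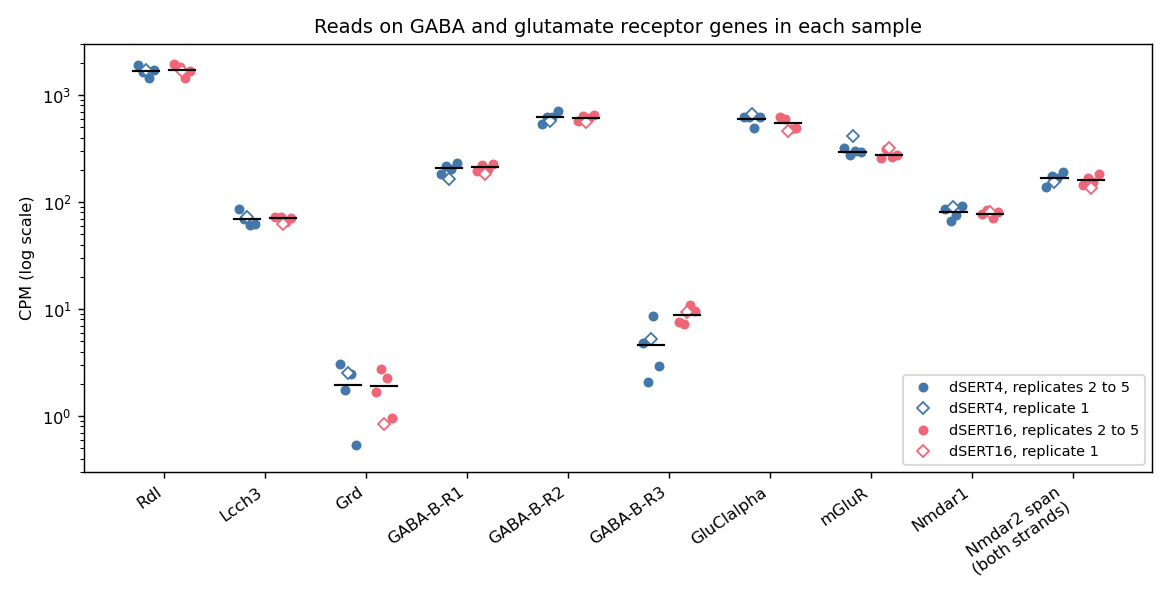
Points give the CPM (log axis) of each receptor gene in each of the 10 samples, filled for replicates 2 to 5 and open for replicate 1, with the mean of replicates 2 to 5 as a line. The Nmdar2 span is counted on both strands and includes reads of inc. Rdl lay highest, from 1438 to 1954 CPM, and Grd lowest, from 0.53 to 3.04 CPM, and the genotypes overlapped for every gene.

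To compare levels between genes, CPM was divided by length. Per kilobase of exon outside other genes, the mean level over replicates 2 to 5 was 189 CPM for Rdl, 155 for GABA-B-R2, 97.1 for Lcch3, 85.9 for GluClalpha and 45.5 for mGluR. It was 37.2 CPM for GABA-B-R1, 19.7 for Nmdar1, 0.95 for GABA-B-R3 and 0.65 for Grd. The ranges of the 8 samples overlapped between the neighbours Rdl and GABA-B-R2, Lcch3 and GluClalpha, and GABA-B-R3 and Grd, and were separate between the other neighbours. The step from Nmdar1 down to GABA-B-R3 was 20.6-fold. The deposited reads include introns, so this scale overstates genes with many intronic reads, whose share is not given by the counts.

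On both strand-specific columns over all exon bases, the genes kept this order. The span of Lcch3 was at 114.9 CPM per kilobase, GluClalpha at 79.6 and the Nmdar2 span at 20.5 against 19.7 for Nmdar1. The value for Lcch3 on this scale includes any reads of Ranbp16 and asRNA:CR45000 over its span and is no level of Lcch3 alone. Ranges then overlapped also between GABA-B-R2 and Lcch3, between mGluR and GABA-B-R1, and between the Nmdar2 span and Nmdar1, and no longer between Lcch3 and GluClalpha. The authors' TPM values gave another order. GABA-B-R2 came first at 468 ± 41.3 TPM, ahead of Rdl at 196 ± 22.6, and mGluR was next at 95.01 ± 8.64 TPM, ahead of Lcch3 at 85.5 ± 9.80 and GluClalpha at 53.6 ± 6.84 (SD, n = 8). For 99.9% of 6750 genes, the counts divided by these TPM values were proportional to the gene span within 1%, and for 1.81% to the exon length. In that unit GluClalpha, with 6633 exon bases in a span of 44517, and Rdl, with 8994 in 36312, are divided by a length that is mostly intron, while GABA-B-R2 has 3988 exon bases in a span of 5508.

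**Figure D3:**
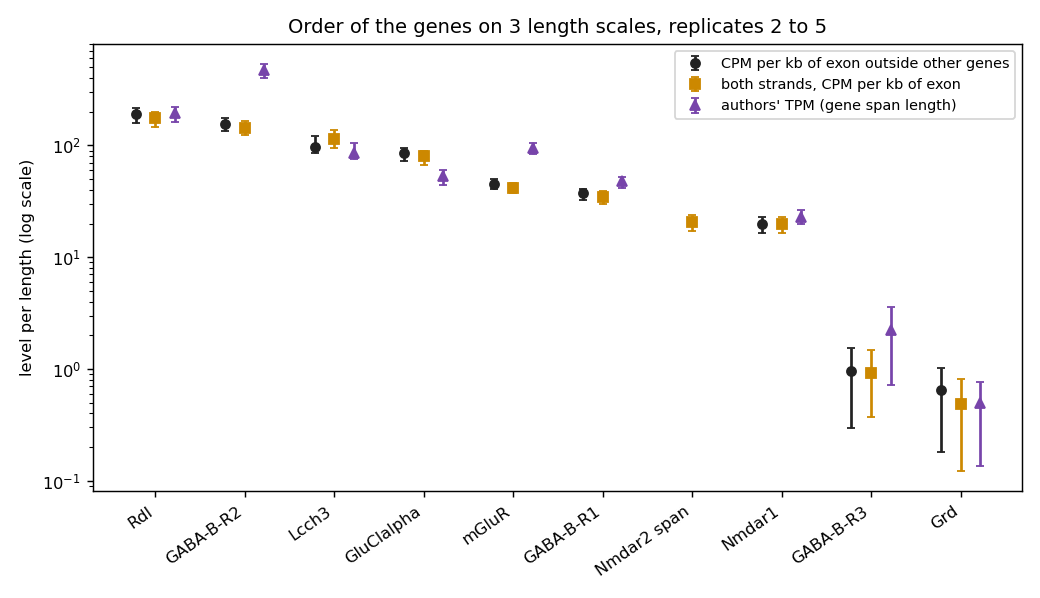
Points give the mean level per length (log axis) of each gene over the 8 samples of replicates 2 to 5 on each of 3 scales, and bars run from the lowest to the highest sample. Rdl leads per kilobase of exon at 189 CPM, and GABA-B-R2 leads in the authors' TPM at 468.

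The comparison of dSERT16 with dSERT4 asked whether constitutive loss of the serotonin transporter goes with altered receptor transcripts in KCs. None of the 9 genes passed the test (edgeR quasi-likelihood test, Benjamini-Hochberg adjusted p under 0.05 over 8690 genes), against 43 of all genes tested, 0.495%, of which 23 were higher in dSERT16 (0.265%) and 20 lower (0.23%). DESeq2 called 149 genes, whose share of all genes was not counted, and 0 of the 9. At an unadjusted p under 0.05, 1 of the 9 was found, GABA-B-R3, against 7.01% of all genes, and 0 of 9 had genotypes that did not overlap, against 4.89%. Of the 9 fold changes, 4 were above and 5 below 0, with a median log2 fold change of -0.01 against 0.00 over all genes tested.

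For the well-counted genes the differences were small and the intervals narrow. Rdl was at 1676 ± 199 CPM in dSERT4 against 1724 ± 223 CPM in dSERT16 (SD, n = 4 each), a log2 fold change of 0.04 with a 95% interval of -0.18 to 0.26 (edgeR adjusted p = 0.994). GABA-B-R1 changed by 0.02 on the log2 scale (-0.19 to 0.22) and GABA-B-R2 by -0.01 (-0.20 to 0.18), or in percent -12.4 to 16.6 for the former and -12.9 to 13.5 for the latter. Lcch3, at 69.8 ± 11.9 against 70.2 ± 3.33 CPM, had a log2 fold change of 0.01 (-0.26 to 0.27).

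The listed glutamate receptors also had narrow intervals, all of which held 0. GluClalpha was at 591 ± 67.1 CPM in dSERT4 against 549 ± 71.5 CPM in dSERT16, a log2 fold change of -0.11 (-0.33 to 0.12; edgeR adjusted p = 0.918). The value for mGluR was -0.10 (-0.28 to 0.09), for Nmdar1 -0.04 (-0.29 to 0.22) and for the Nmdar2 span on both strands -0.06 (-0.30 to 0.18).

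The 2 scarce genes allowed much larger differences. Grd had a log2 fold change of -0.03 with an interval of -1.27 to 1.22, which spans a 2-fold change in either direction. GABA-B-R3 was at 4.59 ± 2.91 CPM in dSERT4 against 8.84 ± 1.71 CPM in dSERT16, a log2 fold change of 0.95 ± 0.39 (SE) with an interval of 0.11 to 1.78. Its unadjusted p was 0.0296 and its edgeR adjusted p 0.624. Over 16 alternatives the log2 fold change of GABA-B-R3 ran from 0.70 to 1.43 and its adjusted p from 0.152 to 0.926, so that no setting called it. The lowest adjusted p came from all 5 pairs with the replicate number as a block, at a log2 fold change of 1.06.

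**Figure D4:**
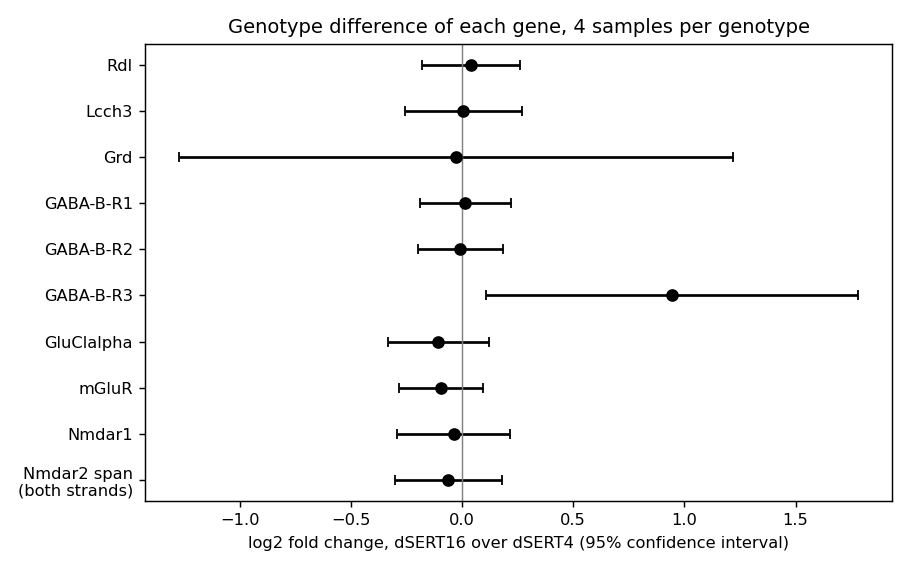
Points give the log2 fold change of dSERT16 over dSERT4 for each gene from edgeR, with 4 samples per genotype, and bars the 95% confidence interval. GABA-B-R3 is the only gene whose interval, 0.11 to 1.78, lies off 0, and it did not pass the test after adjustment over all genes.

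The spread between samples of 1 genotype set these limits. The biological coefficient of variation that edgeR fitted was 0.106 to 0.135 for the 7 well-counted genes, against a median of 0.197 over all genes tested, and was 0.401 for GABA-B-R3 and 0.576 for Grd. Over all 10 samples the CPM had a coefficient of variation of 8.24% for GABA-B-R2, 10.3% for Rdl and 14.99% for mGluR, and of 43.4% for GABA-B-R3 and 46.2% for Grd.

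The replicate 1 pair was then compared with the other 4 pairs, with genotype in the model. None of the 9 genes passed the edgeR test, against 94 of 10387 genes, 0.905%, of which 29 were higher (0.279%) and 65 lower (0.626%). Of the 9, 2 had an unadjusted p under 0.05, against 13.8% of all genes. None of the 9 had replicate 1 values wholly outside those of the other samples, against 9.02%. mGluR had a log2 difference of 0.37 ± 0.10 (SE) in replicate 1, with an edgeR adjusted p of 0.110, and DESeq2 called it higher at an adjusted p of 0.0470. DESeq2 called 509 genes in this comparison, and their share of all genes was not counted. mGluR was at 416 and 317 CPM in replicate 1 and at 259 to 317 CPM in the other 8 samples. The difference rested mainly on the dSERT4 sample, since without it the log2 difference was 0.21, and without the dSERT16 sample 0.52. GABA-B-R1 had a log2 difference of -0.25 ± 0.11 (SE; edgeR adjusted p = 0.317).

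Glial markers moved with replicate 1, and their part in the values of mGluR and GABA-B-R1 was not tested. Of 8 glial markers tested, 5 were lower in replicate 1 (edgeR), against 0.626% of all genes that were lower, with a median log2 difference of -2.37 over the 8. These were Gat, Eaat1, Gs2, repo and wrapper. moody had 0 reads in the column without strand and 4021 in the strand-specific columns, and alrm had 0 in both.

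**Figure D5:**
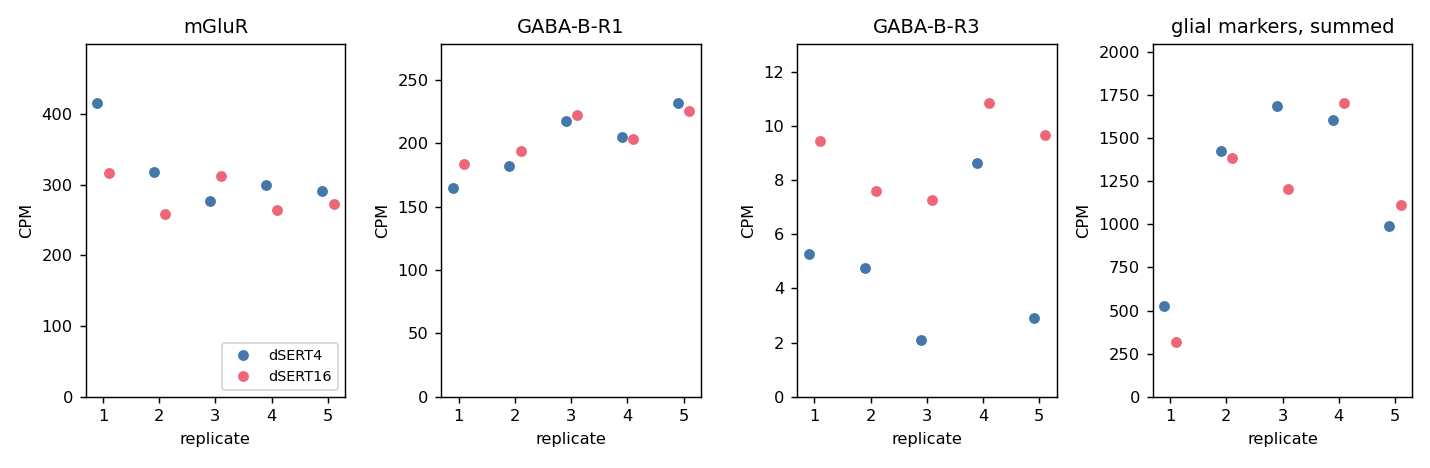
Points give the CPM of mGluR, GABA-B-R1 and GABA-B-R3 and the summed CPM of the glial markers by replicate number, coloured by genotype. mGluR was highest in the dSERT4 sample of replicate 1, at 416 CPM, and the glial sum was lowest in replicate 1, at 525 and 318 CPM.

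Of those 5 genes, 3 also handle the transmitters of these receptors. Gat (chromosome 4, 629691-635350), the plasma membrane GABA transporter, was at 14.5 and 8.48 CPM in replicate 1 and at 79.5 to 144 CPM in the other samples. Eaat1, the glial glutamate transporter, was at 6.20 and 12.4 CPM against 71.4 to 114 CPM. Gs2, glutamine synthetase, was at 168 and 68.1 CPM against 393 to 671 CPM. The ranges were separate for all 3. By genotype, none of the 3 passed the test in replicates 2 to 5, with log2 fold changes of -0.01 for Gat, -0.07 for Eaat1 and 0.03 for Gs2 (edgeR adjusted p from 0.985 to 0.998).

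Genes around the receptors were examined in lists. By genotype, 0 genes passed the edgeR test among 11 other ionotropic glutamate receptors tested, 5 other anion channel subunits of the cys-loop family, 6 genes of GABA synthesis, transport and breakdown, 7 of glutamate transport and metabolism, 10 receptor scaffolds and partners and 10 G protein and effector genes. The median log2 fold changes of these lists lay between -0.12 and 0.10, beside 0.00 for all genes tested. Unadjusted p-values fell under 0.05 for 2, 1, 2, 1, 1 and 1 of them in that order, 8 of 49 genes in all or 16.3%, beside 7.01% of all genes. The 8 were not of 1 direction. Gad1, the enzyme that makes GABA, was at 8.87 ± 2.63 CPM in the dSERT4 samples against 14.4 ± 4.75 CPM, and Gabat, which breaks GABA down, at 488 ± 38.7 and 413 ± 40.7 CPM (SD, n = 4 each). KaiR1D, a kainate-type receptor, had a log2 fold change of 0.30 and the related Grik one of -0.31 (edgeR adjusted p = 0.554 and 0.662).

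The gene whose profile over the 10 samples was most like each receptor gene was taken by the smallest root mean square difference of centred log2 CPM, among 10387 genes. It was Ih for Rdl (0.0597), CG7781 for Lcch3 (0.0621), ssx for GABA-B-R1 (0.0767), yki for GABA-B-R2 (0.0559), Gpo1 for GluClalpha (0.1002), CG4768 for mGluR (0.0457) and CG6145 for Nmdar1 (0.0741). The scarce Grd had no such close match, with 0.268, to a transposon insertion of the Stalker4 family. These are descriptions over 10 samples that differ in library depth and come in pairs by replicate number.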

How the data were processed

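The authors prepared SMART-seq libraries together, aligned the reads with STAR to BDGP6 (dm6 in the submitters' processing notes) and deposited raw counts of uniquely mapped reads per gene, in a column without strand and 2 strand-specific columns. The annotation release and the counting feature are not given in the sources used here. The authors also deposited TPM values per sample for replicates 2 to 5, and columns of fold changes and p-values from their own DESeq2 comparison, which were not used. Ambiguous reads made up 8.84% to 9.85% and reads on no gene 0.264% to 0.463% of reads per sample, and stayed out of library sizes and tests.

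The 10 genes and the gene lists were chosen with earlier results of these data known. Rows of the deposited table were joined by FlyBase identifier to the column without strand. Positions and exon lengths come from an Ensembl annotation of BDGP6, which placed 23801 of 23882 features. Counts were tested in R 4.3.3 with edgeR 4.0.16 (filterByExpr with a minimum count of 10 and minimum total of 15, TMM, robust glmQLFit, glmQLFTest), and p-values were adjusted by Benjamini-Hochberg over all genes tested. Standard errors were derived from the log2 fold change and its F statistic, and intervals are 95%. Log2 CPM used a prior count of 2. The text names all 10 genes, any list gene past the threshold, SerT, and the gene with the nearest profile to each receptor gene. Gad1, Gabat, KaiR1D and Grik were named after their values were seen. Some genes that these rules pick are not reported here. RGS7, in the list of G protein genes, was not matched.

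Alternatives were DESeq2 1.42.0, its size factors in edgeR, no filter, a minimum of 10 reads per sample, inclusion of replicate 1, a replicate block with 4 or 5 pairs, the strand-specific columns summed, and omission of each sample. Strand sums for replicate 1 and the length scales were added after seeing the data. The replicate numbers were taken to pair the samples because same-numbered samples share a title prefix and the study dissociated the genotypes in parallel. The correlation of deviations from the genotype means was 0.217, 0.104, 0.121, 0.0956 and 0.0546 for replicates 1 to 5. The fits were tested on simulated counts with changes put into genes drawn from all those kept. The genotype fit called 37.9% of the 1.5-fold, 64.6% of the 2-fold and 70.3% of the 4-fold changes tested. The replicate 1 fit called 21.5%, 43.5% and 63.5%. Many changes of these sizes would therefore not be called. Tables and figures used Python 3.11.15.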

Additional observations from a re-analysis of the deposited data

Results flagged for a closer look

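GluClalpha had 1 sample far from the rest of its group. Among replicates 2 to 5 of dSERT4, replicate 4 was at 490 CPM and the other 3 samples lay between 617 and 628 CPM, so that the gap below them was 0.915 of the range of the group. The dSERT16 sample of replicate 4 was at 480 CPM, beside 494 CPM in replicate 5 of dSERT16. Rdl was also lowest in replicate 4 in both genotypes, at 1440 and 1438 CPM. Chance alone sets apart about 1 in 20 such groups, and 26 groups were searched.

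Nmdar2 had 0 reads in the column used for the comparisons and 62558 reads in the strand-specific columns of the 10 samples. These reads lie over a span that inc covers completely, and how many of them come from Nmdar2 was not tested.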

How the results depend on the processing

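The count of receptor genes called by genotype was 0 under all 16 alternatives. All genes called by genotype were 43 in the reported test, 149 with DESeq2, 77 without a filter, 66 with all 5 pairs and 94 with the replicate block and all 5 pairs, and ran from 18 to 40 when single samples were left out. The replicate block on 4 pairs gave 54, and neither paired fit called a receptor gene. For replicate 1, the 94 genes became 509 with DESeq2, with 1 receptor gene, mGluR, and 26 to 58 with either sample left out. The causes were not tested.

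No receptor gene whose sign turned was called in any setting. The log2 fold change by genotype became -0.0026, -0.0368 and -0.0281 for Lcch3 with at least 10 counts, with all 5 pairs and with the replicate block on 5 pairs, and 0.115 for Grd with the replicate block. With single samples left out it ran from -0.0239 to 0.125 for Rdl, -0.0504 to 0.135 for Lcch3, -0.332 to 0.279 for Grd, -0.0417 to 0.0714 for GABA-B-R1, -0.0683 to 0.0607 for GABA-B-R2 and -0.121 to 0.0413 for Nmdar1. For replicate 1, Rdl became -0.0041 with DESeq2 and -0.0046 with its size factors, Lcch3 0.0707 on both strands and GluClalpha 0.00077 without a filter. With either replicate 1 sample left out, values ran from -0.0352 to 0.0739 for Rdl, -0.168 to 0.0754 for Lcch3, -1.17 to 0.416 for Grd and -0.243 to 0.202 for GluClalpha.

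Grd held few reads, 11 to 178 per sample, as did GABA-B-R3, with 60 to 609. How far depth limited their comparisons was not tested. Reads without molecular identifiers are not independent molecules. Intronic reads were counted with exonic ones. Per-length levels depend on the length used, and Lcch3 and Nmdar2 share most or all of their exons with other gene spans.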
